A study of Mus musculus with 2 samples.

Results

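A set of 10 genes of the S100, annexin and galectin families and their partners was followed across the lymphocyte classes of mouse spleen, namely S100a4, S100a6, S100a10, S100a11, Anxa1, Anxa2, Lgals1, Lgals3, Vim and Ahnak. They are 10 of the 32285 genes in the count tables, all 10 were found there by symbol, and they were chosen by name from earlier results of the same data, as genes known from memory lymphocytes. Their differences between the libraries and between memory-type and other cells are therefore given as descriptions. The ALLO library came from the spleen of a wild-type C57BL/6 recipient that carried skin of C57BL/6-Tg(HLAA2.1)1Enge/J donors, which express a human HLA molecule, grafted at week 0 and again at week 5. The SYN library came from a wild-type C57BL/6 recipient given wild-type C57BL/6 skin by an identical procedure. Spleens were taken 4 weeks after the second graft, and splenocytes were frozen, thawed, passed over a dead cell removal column and captured for 5′ single-cell RNA sequencing. Donors and recipients were anesthetized with Zoletil and Rompun for grafting. The design text names the ALLO and the SYN mouse in the singular, and the sources used here give no age or sex. The study's title places the question in the Th17 pathway and the making of antibodies to HLA.

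S100 proteins are small calcium-binding proteins that act as dimers, annexins bind membrane phospholipids when calcium is present, and galectins bind sugar chains on cell surface proteins. S100A10 binds annexin A2 and S100A11 binds annexin A1, and the giant scaffold protein AHNAK joins the S100A10 and annexin A2 complex under the plasma membrane, while vimentin forms the intermediate filaments that lymphocytes carry. In mouse spleen these genes are known for low levels in naive lymphocytes and higher levels in activated, memory and natural killer (NK) cells.

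The ALLO library held 11185 barcodes with 39476214 unique molecular identifiers (UMIs, each counting an RNA molecule), and the SYN library held 17777 barcodes with 45435231 UMIs. Of these, 9926 ALLO and 11267 SYN barcodes had at least 1000 UMIs and were used, so that 11.3% of ALLO and 36.6% of SYN barcodes were left out. The libraries shared 264 barcode sequences, 2.36% of the ALLO and 1.49% of the SYN barcodes. B cells (at least 2 UMIs of Cd79a and Cd79b, none of Cd3d, Cd3e and Cd3g) made up 6980 ALLO and 6822 SYN cells, 70.3% and 60.5% of the cells used. T cells carried a UMI of a Cd3 gene and none of Cd79a. Those with a Foxp3 UMI, the regulatory T cell factor, numbered 104 in ALLO and 115 in SYN. CD4 T cells (a Cd4 UMI, none of Cd8a or Cd8b1) numbered 574 in ALLO and 872 in SYN, including 45 ALLO and 49 SYN cells with a Foxp3 UMI. CD8 T cells (a Cd8b1 UMI, none of Cd4) numbered 559 in ALLO and 555 in SYN. NK cells (a UMI of Ncr1 or Klrb1c, none of Cd3e) numbered 241 in ALLO and 370 in SYN, of which 57 ALLO and 109 SYN cells also met the B cell rule. Each T class was split by a UMI of Ccl5, a chemokine gene of memory T cells. All 7 T cell marker genes were found in each T class and all 8 B cell markers in the B cells, while platelet markers held at most 8 UMIs in any class. With 1 library per group no test between the groups was possible, and every interval below is an exact 95% interval of counting error alone.

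The 4 S100 genes lie on chromosome 3, where S100a4 (chr3:90603771-90606045, plus strand) and S100a6 (chr3:90612882-90624181, plus strand) stand 6836 bases apart and S100a11 and S100a10 stand 28792 bases apart. S100a11 lies at chr3:93520488-93526287 and S100a10 at chr3:93555080-93564643. Anxa2 lies at chr9:69453620-69491795, Lgals1 at chr15:78926725-78930465, Lgals3 at chr14:47367751-47386160, Vim at chr2:13573927-13582826, Ahnak at chr19:8989284-9076914 and, on the minus strand, Anxa1 at chr19:20373428-20390944, in the mm10 (GRCm38) annotation GENCODE vM21. The stretch just before the gene start is shown for 4 members, S100a4 and S100a6 as neighbours that moved the same way between libraries in most classes, S100a11 as an S100 gene that hardly moved, and Anxa2 as the member with the widest gap between NK and B cells. All are on the plus strand of GRCm38.p6 from RefSeq, cut where the annotated gene begins, at chr3:90603520-90603769 for S100a4, chr3:90612644-90612881 for S100a6, chr3:93520246-93520487 for S100a11 and chr9:69453433-69453619 for Anxa2. Capitals mark a TATA box (TATAAA) in S100a4 and AP-1 motifs (TGANTCA) in S100a11 and Anxa2.
S100a4: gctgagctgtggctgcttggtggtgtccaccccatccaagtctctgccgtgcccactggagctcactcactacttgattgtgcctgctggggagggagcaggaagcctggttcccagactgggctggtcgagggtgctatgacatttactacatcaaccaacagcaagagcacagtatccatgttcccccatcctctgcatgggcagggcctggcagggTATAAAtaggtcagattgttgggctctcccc
S100a6: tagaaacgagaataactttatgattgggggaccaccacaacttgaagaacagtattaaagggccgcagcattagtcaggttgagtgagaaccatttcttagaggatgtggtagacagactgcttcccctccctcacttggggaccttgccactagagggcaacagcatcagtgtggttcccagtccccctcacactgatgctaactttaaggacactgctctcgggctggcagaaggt
S100a11: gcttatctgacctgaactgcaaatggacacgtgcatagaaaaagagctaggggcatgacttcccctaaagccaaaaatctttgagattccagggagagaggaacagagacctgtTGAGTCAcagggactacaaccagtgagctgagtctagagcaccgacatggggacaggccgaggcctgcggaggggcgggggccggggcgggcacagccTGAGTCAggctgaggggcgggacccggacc
Anxa2: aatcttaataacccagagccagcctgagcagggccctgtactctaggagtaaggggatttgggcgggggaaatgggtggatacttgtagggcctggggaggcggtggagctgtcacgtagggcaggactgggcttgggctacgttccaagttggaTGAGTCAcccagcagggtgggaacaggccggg
Motifs were searched on both strands of the 250 bases before each start. TGANTCA was found in the windows of Anxa2 and S100a11, 2 of the 8 members with a window, against 6.75% of 32851 mouse promoters. TATAAA was found in those of Anxa1, Anxa2, S100a4 and Vim, 4 of 8, against 12.4% of promoters, and that of Anxa2 lies past the stretch shown. Of the other motifs searched, CACCC was in 5 of 8 against 52.0% of promoters, GGCGGG in 4 against 32.5%, GGAAGT in 3 against 19.7% and TCACAC in 1 against 12.3%. S100a10 and Lgals1 had no window in the table. A match of letters is a description and not a binding site.

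Levels are given as CPM, the UMIs of a gene scaled to a class total of 1000000 UMIs. Orders are over Foxp3 T, NK and B cells and CD4 and CD8 T cells by Ccl5. In both libraries most of the 10 genes were highest in NK or Foxp3 T cells, and most were lowest in B cells, though not always the same genes. In ALLO, S100a6, S100a11 and Lgals3 were lowest in CD8 T cells without Ccl5, and Anxa1 in Foxp3 T cells. Effector CD8 T cells, described below, were not set apart here. In ALLO they held Lgals1 at 2727 CPM, above NK cells at 967, and Anxa2 at 197, below NK cells at 564. NK cells were at least 1.5-fold above B cells for 9 of 10 members in ALLO and for 9 of 10 in SYN, where 20.9% of 10501 genes in ALLO and 18.2% of 10469 genes in SYN were that far above. None was 1.5-fold lower, against 17.4% of genes in ALLO and 17.1% in SYN, and the member left over in both was Lgals3. CD8 T cells with Ccl5 lay below NK cells for most members. Of 10 counted in ALLO 7 were at least 1.5-fold lower and 1 higher, against 31.1% and 7.19% of genes, and of 9 in SYN 8 were lower and 0 higher, against 34.8% and 6.83%. The annexins lay furthest below, with Anxa2 in CD8 T cells with Ccl5 at 0.147 of its NK level in ALLO and 0.163 in SYN.

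Anxa2, the annexin of the S100A10 complex, stood at 564 CPM in ALLO NK cells (517 to 614) against 13.5 in ALLO B cells (12.1 to 14.9), a ratio of 41.9 (36.5 to 48.1). In SYN it stood at 586 in NK cells against 18.3 in B cells, a ratio of 32.1 (28.4 to 36.3). This was the widest gap between NK and B cells of any member in either library, and the NK levels of the libraries overlapped within counting error. Lgals1, which encodes galectin 1, a protein that can kill or quiet activated T cells, reached 967 CPM in ALLO NK cells against 34.0 in ALLO B cells, and 919 in SYN NK cells against 31.3 in SYN B cells. Ahnak reached 905 in ALLO NK cells against 61.4 in ALLO B cells, and 992 in SYN NK cells against 63.0 in SYN B cells. Both genes were high in NK cells and low in B cells of either library. Anxa1, an annexin known for damping inflammation, was at 182 CPM in ALLO NK cells and 178 in SYN NK cells, and B cells held 13.7 in ALLO and 18.3 in SYN. T cells held less Anxa1 than NK cells. The 10 UMIs of ALLO CD4 T cells with Ccl5 gave 42.3 CPM, and the 6 of SYN gave 23.2. It had 0 UMIs in 104 ALLO Foxp3 T cells and 3 UMIs in 115 SYN Foxp3 T cells, and 1 UMI in 274 ALLO and 2 UMIs in 344 SYN CD8 T cells without Ccl5.

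S100a10, the annexin A2 partner, S100a11, the annexin A1 partner, and Vim were found at more even levels in every lymphocyte class. Across 7 classes (Foxp3 T, CD4 T and CD8 T each by Ccl5, NK and B) S100a10 ranged from 314 CPM in B cells to 1145 in Foxp3 T cells in ALLO, and from 355 in B cells to 1504 in Foxp3 T cells in SYN. S100a11 ranged from 252 in CD8 T cells without Ccl5 to 618 in CD4 T cells with Ccl5 in ALLO, and from 261 in CD8 T cells without Ccl5 to 785 in Foxp3 T cells in SYN. Vim ranged from 317 in B cells to 701 in Foxp3 T cells in ALLO, and from 305 in B cells to 855 in Foxp3 T cells in SYN. For these 3 genes the classes were spread by less than 5-fold, and neighbours in the order often overlapped, as for 5 of the 6 neighbouring pairs of Vim and 4 of 6 of S100a11 in ALLO.

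S100a4, which binds non-muscle myosin and marks memory T cells, spanned a wide range between classes in each library. The highest and lowest levels given next are over the same classes, with effector CD8 T cells not set apart. In ALLO it ran from 1.63 CPM in B cells to 250 in CD4 T cells with Ccl5, where it overlapped with Foxp3 T cells at 198. In SYN it ran from 4.88 in B cells to 566 in Foxp3 T cells, and the next class, CD4 T cells with Ccl5, was clear of it at 279. S100a6, which binds the ubiquitin-pathway protein CACYBP and is known from growing cells, was highest in Foxp3 T cells of both libraries, at 687 in ALLO and 1118 in SYN. Its lowest level was 26.1 in CD8 T cells without Ccl5 in ALLO and 35.6 in B cells in SYN. Lgals3, which encodes galectin 3, a galectin of macrophages and activated T cells, had its highest level at 28.3 in Foxp3 T cells in ALLO and at 81.2 in CD4 T cells with Ccl5 in SYN, and all 6 neighbouring pairs in its ALLO order overlapped.

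**Figure D1:**
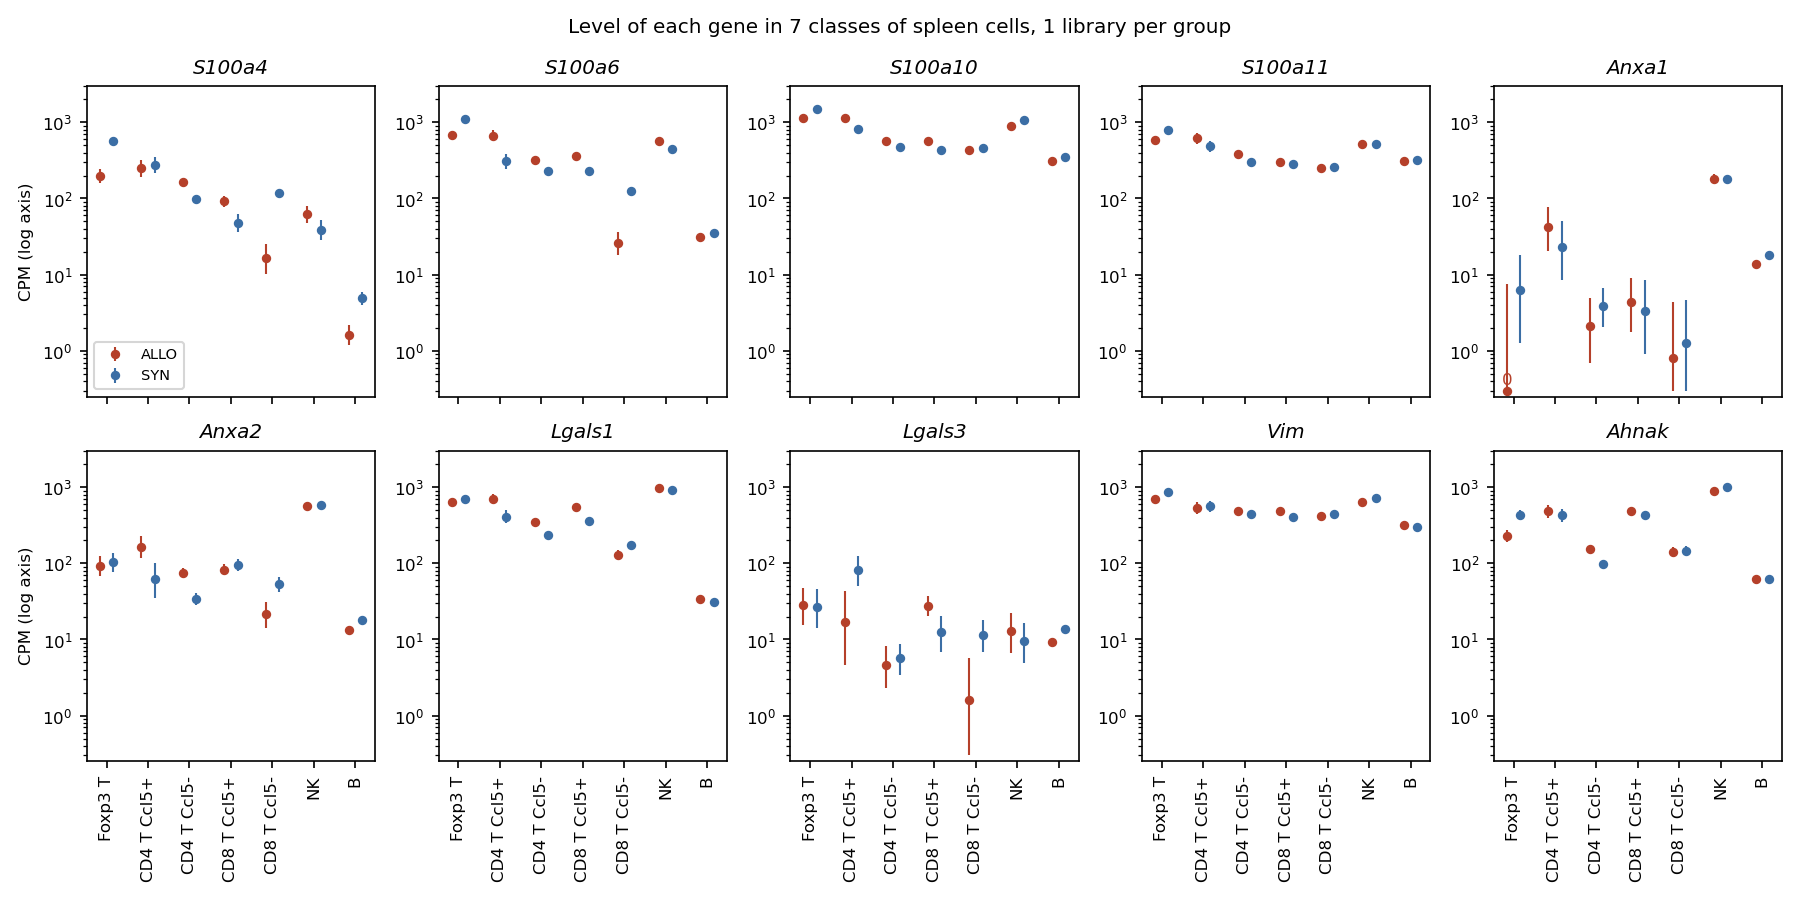
Level of each of the 10 genes, in CPM on a log axis, in 7 classes of spleen cells in ALLO (red) and SYN (blue), with 95% counting intervals as bars and 1 library per group. The 0 in the Anxa1 panel marks ALLO Foxp3 T cells, which held no Anxa1 UMI, and is drawn at the foot of the axis. S100a4, S100a6, Anxa2, Lgals1 and Ahnak fall steeply to B cells, while S100a10, S100a11 and Vim vary little.

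Cells of the T classes with a Ccl5 UMI were set against those without, within each library. Ccl5 was found in 51.0% of ALLO and 38.0% of SYN CD8 T cells, 9.41% of ALLO and 6.65% of SYN CD4 T cells, and 7.69% of ALLO and 17.4% of SYN Foxp3 T cells. The naive T cell genes were lower in the Ccl5 classes of both libraries. In CD4 T cells 7 of 10 were at least 1.5-fold lower in each library, against 12.4% of all genes in ALLO and 12.1% in SYN. In CD8 T cells 6 of 10 were in each library, against 5.96% in ALLO and 7.19% in SYN. A member was counted when it held at least 50 UMIs over both sides.

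In CD8 T cells, 5 of the 8 counted members were at least 1.5-fold higher with Ccl5 in ALLO, namely S100a4, S100a6, Anxa2, Lgals1 and Ahnak, against 6.94% of all genes, and none was lower, against 5.96%. In SYN 4 of 8 were higher, S100a6, Anxa2, Lgals1 and Ahnak, against 5.02% of genes, and S100a4 was lower, against 7.19% of genes. These shares are given beside counts of genes that were chosen as memory genes. S100a6 stood at 363 CPM in ALLO CD8 T cells with Ccl5 against 26.1 in those without, a ratio of 13.9 (9.79 to 20.4). In SYN it stood at 228 with Ccl5 against 124 without, a ratio of 1.84 (1.53 to 2.22). The ratio was wider in ALLO. Dividing cells, those with any UMI of Mki67 or Top2a, held 0 of the 33 ALLO and 123 of the 195 SYN S100a6 UMIs without Ccl5. Outside dividing cells S100a6 stood at 322 with Ccl5 against 27.3 without in ALLO, a ratio of 11.8 (8.28 to 17.3), and at 171 against 48.4 in SYN, a ratio of 3.54 (2.69 to 4.71). Ahnak was at 480 with Ccl5 against 140 without in ALLO, and at 433 with Ccl5 against 147 without in SYN, ratios of 3.43 (2.91 to 4.06) and 2.95 (2.52 to 3.46). It was the member whose Ccl5 ratio in CD8 T cells was most alike in the libraries among those counted as higher in both. Lgals1 gave 553 with Ccl5 against 129 without in ALLO (ratio 4.28), and 363 against 175 in SYN (ratio 2.07). S100a10, S100a11 and Vim differed by less than 1.5-fold with Ccl5 in both libraries, where the lowest ratio was 0.906 (Vim in SYN) and the highest 1.34 (S100a10 in ALLO).

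S100a4 went opposite ways in the CD8 T cells of the libraries. In ALLO it stood at 91.5 CPM with Ccl5 against 16.6 without, and in SYN at 47.8 with Ccl5 against 117 without. The SYN value without Ccl5 came largely from a few cells. Of 184 S100a4 UMIs in 344 SYN cells, 1 cell of 16700 UMIs held 107, and the next cells held 24 and 22. All 3 carried UMIs of the dividing cell gene Mki67 and of the B cell gene Cd79b, and in that first cell they numbered 33 and 2. The SYN log2 ratio with over without Ccl5 was -1.29 in all cells. It was 0.31 without dividing cells, where 15 UMIs with Ccl5 stood against 16 without, and 2.29 when cells with any UMI of a set of B cell, myeloid and red cell genes, Cd79b and Lyz2 among them, were left out.

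In CD4 T cells, 7 of 8 counted members were at least 1.5-fold higher with Ccl5 in ALLO, all but Vim, against 15.1% of all genes. In SYN 6 of 8 were, all but S100a6 and Vim, against 15.6% of genes. None was 1.5-fold lower in either library, against 12.4% of genes in ALLO and 12.1% in SYN. Ahnak had the widest ratio among these in both, with 483 CPM with Ccl5 against 156 without in ALLO (ratio 3.09, 2.48 to 3.83), and 426 against 99.2 in SYN (ratio 4.29, 3.43 to 5.34). S100a4 stood at 250 with Ccl5 against 164 without in ALLO, and at 279 with Ccl5 against 98.3 without in SYN. S100a6 stood at 669 with Ccl5 against 323 without in ALLO, and at 310 against 231 in SYN. The S100a4 ratio was wider in SYN and the S100a6 ratio wider in ALLO, and the difference between libraries was not tested. Without cells holding Foxp3, S100a4 stood at 226 with Ccl5 against 164 without in ALLO, a ratio of 1.38 (0.998 to 1.86), and at 218 against 49.0 in SYN, a ratio of 4.44 (3.17 to 6.13). S100a6 without Foxp3 cells had a ratio of 2.57 in ALLO (2.14 to 3.08) and of 0.948 in SYN (0.645 to 1.35). Without dividing cells the S100a4 ratios came closer, at 1.47 in ALLO (1.06 to 2.01) and 1.78 in SYN (1.23 to 2.50). Anxa2 was at 165 with Ccl5 against 74.4 without in ALLO, and at 61.9 against 34.5 in SYN, where the interval of the ratio (0.994 to 3.04) held 1.

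Only 8 ALLO and 20 SYN Foxp3 T cells held a Ccl5 UMI. In ALLO 3 of 7 counted members were at least 1.5-fold higher with Ccl5 and 2 lower (S100a6 and Lgals1), against 12.4% and 23.7% of genes. In SYN 4 of 8 were higher and 1 lower (S100a4), against 8.7% and 13.2%. Ahnak stood at 993 CPM with Ccl5 against 301 without in SYN, a ratio of 3.30 (2.48 to 4.37), and at 367 against 221 in ALLO, where the interval of the ratio (0.832 to 3.03) held 1.

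**Figure D2:**
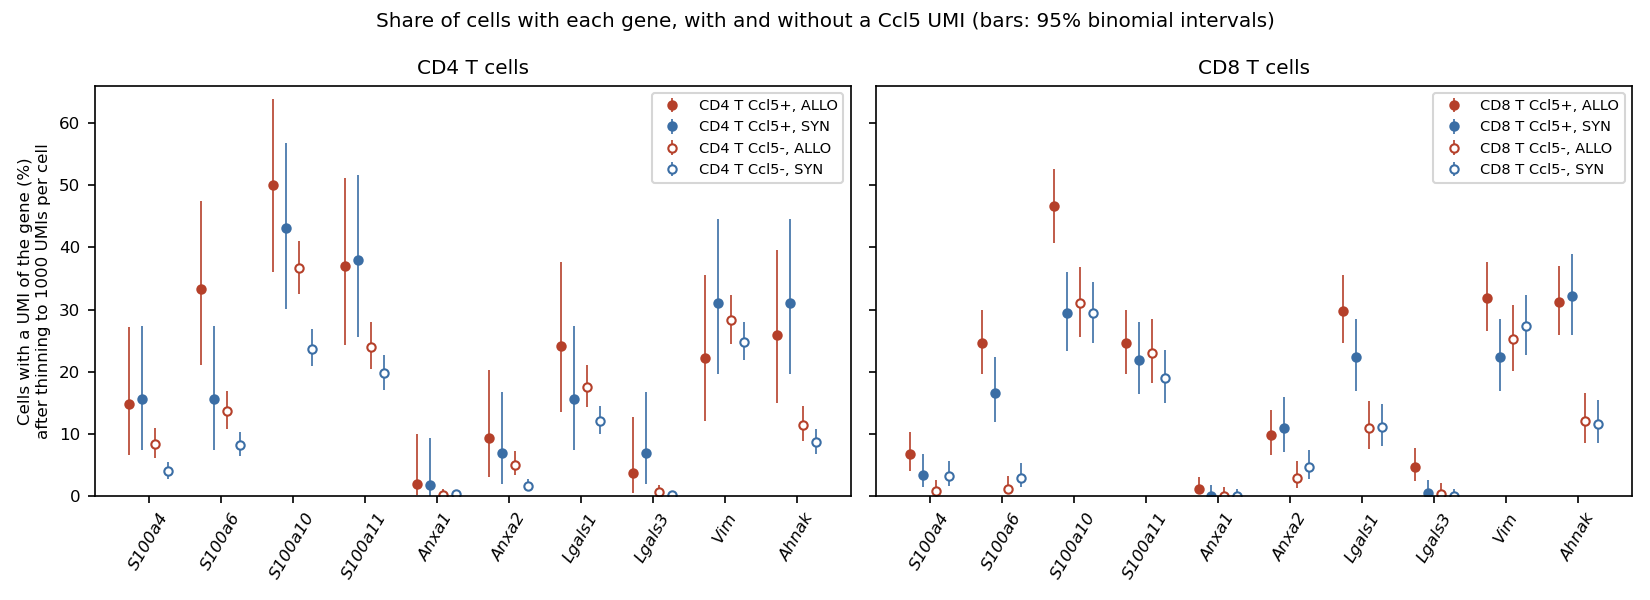
Share of CD4 T cells (left) and CD8 T cells (right) with a UMI of each of the 10 genes, in percent after each cell was thinned to 1000 UMIs, for cells with Ccl5 (filled) and without (open) in ALLO (red) and SYN (blue). Bars are exact 95% binomial intervals. In CD8 T cells the filled points of S100a6, Lgals1 and Ahnak lie above the open ones in both libraries.

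Between ALLO and SYN the 10 genes did not move together across classes. They were mostly higher in ALLO in CD4 T cells and in CD8 T cells with Ccl5, and mostly lower in Foxp3 T cells. These contrasts were among those known when the genes were chosen, so the counts are descriptions and nothing is read from them.

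Among CD8 T cells with Ccl5, 4 of 9 counted members were at least 1.5-fold higher in ALLO, against 2.76% of 5689 genes, and none was 1.5-fold lower, against 4.2%. Over all CD8 T cells, with and without Ccl5, 0 of 9 were higher, against 2.17% of genes, and 0 lower, against 3.66%. In the cells with Ccl5 the median log2 ratio was 0.39 over the members and -0.04 over all genes. S100a4 stood at 91.5 CPM in ALLO (77.3 to 107) against 47.8 in SYN (36.3 to 61.8), a ratio of 1.91 (1.40 to 2.64). S100a6 stood at 363 in ALLO against 228 in SYN, a ratio of 1.60 (1.38 to 1.85), and Lgals1 at 553 against 363, a ratio of 1.52 (1.36 to 1.71). Lgals3 stood at 27.8 in ALLO (45 UMIs) against 12.4 in SYN (15 UMIs), which gave 2.25 (1.23 to 4.34). These 4 were higher in ALLO beyond counting error. So were S100a10 at 1.31-fold (1.18 to 1.46) and Vim at 1.20-fold (1.07 to 1.35), both under the limit of 1.5-fold. S100a11 at 1.08-fold and Ahnak at 1.11-fold had intervals that held 1. Anxa2 was the only counted member below 1, at 82.8 in ALLO against 95.6 in SYN, with an interval that held 1 (0.67 to 1.12). The SYN sum of S100a4 lay in few cells, since 3 cells held 77.6% of it, against 34.5% in 3 ALLO cells. Dividing cells held 33 of 148 ALLO and 43 of 58 SYN UMIs of S100a4, and among the other cells it stood at 77.1 in ALLO against 13.4 in SYN, a ratio of 5.76. Lgals3 was 4.13-fold higher in ALLO without dividing cells, from 33 ALLO and 6 SYN UMIs. It was 11.9-fold higher without the 3 cells richest in it in each library. In SYN those cells held 86.7% of the 15 UMIs, so this last ratio rests on very few SYN UMIs. Myeloid markers summed to 117 CPM in ALLO and 131 in SYN, with Csf1r at 0. NK markers summed to 696 in ALLO and 364 in SYN, with all 6 found, and neutrophil markers to 3.09 in ALLO and 204 in SYN. Their part in the result was not tested.

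Effector-type cells were a larger share of this class in ALLO. Cells with at least 1 UMI of Gzma, Gzmb, Klrg1, Cx3cr1 or S1pr5, genes of killing and of circulating effector cells, were 53 of 285 in ALLO (18.6%) and 17 of 211 in SYN (8.06%). All 8 counted members were at least 1.5-fold higher in effector than in other CD8 T cells with Ccl5 in ALLO, against 29.9% of genes, and 7 of 8 in SYN, against 16.1% of genes. None was lower, against 9.97% of genes in ALLO and 15.8% in SYN. Lgals1 stood at 2727 CPM in ALLO effector cells against 231 in the other ALLO cells, a ratio of 11.8 (10.3 to 13.6). In SYN it stood at 1260 in effector cells against 291 in the others, a ratio of 4.33 (3.46 to 5.38). S100a4 stood at 393 in ALLO effector cells against 46.8 in the others, and at 55.8 in SYN effector cells, from 5 UMIs, against 47.2 in the others. S100a4 was thus higher in the effector cells of ALLO, while in SYN the interval of the ratio (0.369 to 2.93) held 1. Of the 53 S100a4 UMIs in the other SYN cells only 11 lay outside dividing cells. Without dividing cells S100a4 stood at 442 in effector cells against 37.8 in the others in ALLO, a ratio of 11.7 (7.96 to 17.2), and at 52.3 against 10.5 in SYN, a ratio of 4.97 (1.15 to 16.8) from 4 and 11 UMIs. Most Lgals3 UMIs lay in effector cells, 38 of 45 in ALLO and 13 of 15 in SYN.

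Within effector cells 5 of 9 counted members were at least 1.5-fold higher in ALLO than in SYN, against 18.8% of 791 genes, namely S100a4, S100a6, S100a10, Lgals1 and Ahnak, and none was lower, against 5.44%. S100a4 had the widest ratio, 7.05 (2.90 to 22.3). S100a6 and Ahnak had the same sums by coincidence, 262 UMIs in ALLO and 72 in SYN, with different UMIs cell by cell. In the other CD8 T cells with Ccl5 0 of 8 counted members were 1.5-fold higher in ALLO, against 1.96% of genes, and 0 were 1.5-fold lower, against 5.55%. S100a4 there stood at 46.8 in ALLO against 47.2 in SYN, and Lgals1 at 231 against 291. Without dividing cells these other cells held S100a4 at 37.8 in ALLO against 10.5 in SYN, a ratio of 3.60 (1.85 to 7.65), S100a6 at 216 against 139, a ratio of 1.56 (1.27 to 1.91), and Lgals1 at 227 against 226. In these 17 SYN effector cells 3 cells held 77.0% of the Lgals1 UMIs, against 36.2% in 3 of the 53 ALLO cells. Without the 10 ALLO and 2 SYN dividing effector cells Lgals1 stood at 2004 in ALLO against 497 in SYN, a ratio of 4.03 (2.87 to 5.81), and S100a10 at 1499 against 536, a ratio of 2.80. S100a4 and S100a6 were higher in ALLO there too, at 8.45-fold and 2.12-fold. All 98 S100a8 UMIs of SYN effector cells lay in 1 cell, against 0 in ALLO, and without it the ratio was 6.58 for S100a4, 2.04 for Lgals1 and 1.45 for S100a10.

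Within CD8 T cells without Ccl5 the members were lower in ALLO or level. Of 8 counted members 3 were at least 1.5-fold lower, S100a4, S100a6 and Anxa2, against 5.48% of genes, and none was higher, against 1.84%. S100a4 stood at 16.6 CPM in ALLO (21 UMIs) against 117 in SYN (184 UMIs), S100a6 at 26.1 against 124, and Anxa2 at 21.4 against 53.3. Their ratios were 0.142 (0.0861 to 0.224), 0.211 (0.141 to 0.307) and 0.401 (0.25 to 0.626). Dividing cells, 6 in ALLO and 13 in SYN, held 0 of 21 ALLO and 168 of 184 SYN UMIs of S100a4, 0 of 33 and 123 of 195 of S100a6, and 1 of 27 and 37 of 84 of Anxa2. Without dividing cells S100a4 was 1.61-fold higher in ALLO, from 21 ALLO and 16 SYN UMIs. S100a6 was then 1.77-fold lower and Anxa2 1.47-fold lower. Of the 21 ALLO UMIs of S100a4 the leading cells held 12 and 6. Without cells holding UMIs of other lineages, which left 203 ALLO and 287 SYN cells, S100a4 and S100a6 were 3.22-fold and 3.05-fold higher in ALLO. Anxa2 was then 1.12-fold lower. The turns rest on no more than 21 ALLO UMIs of S100a4 and 33 of S100a6, and no interval was taken for them. B cell markers summed to 292 CPM in ALLO and 341 in SYN, with 3 of 8 at 50 UMIs or more, 1 of them 1.5-fold higher in ALLO (Cd79b), and Cd79a at 0 by the class rule. Neutrophil markers summed to 6.34 in ALLO and 112 in SYN. Red cell markers had 0 UMIs in ALLO and 574 in SYN. Beyond the values given above without cells of other lineages, the part of these markers in the result was not tested.

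**Figure D3:**
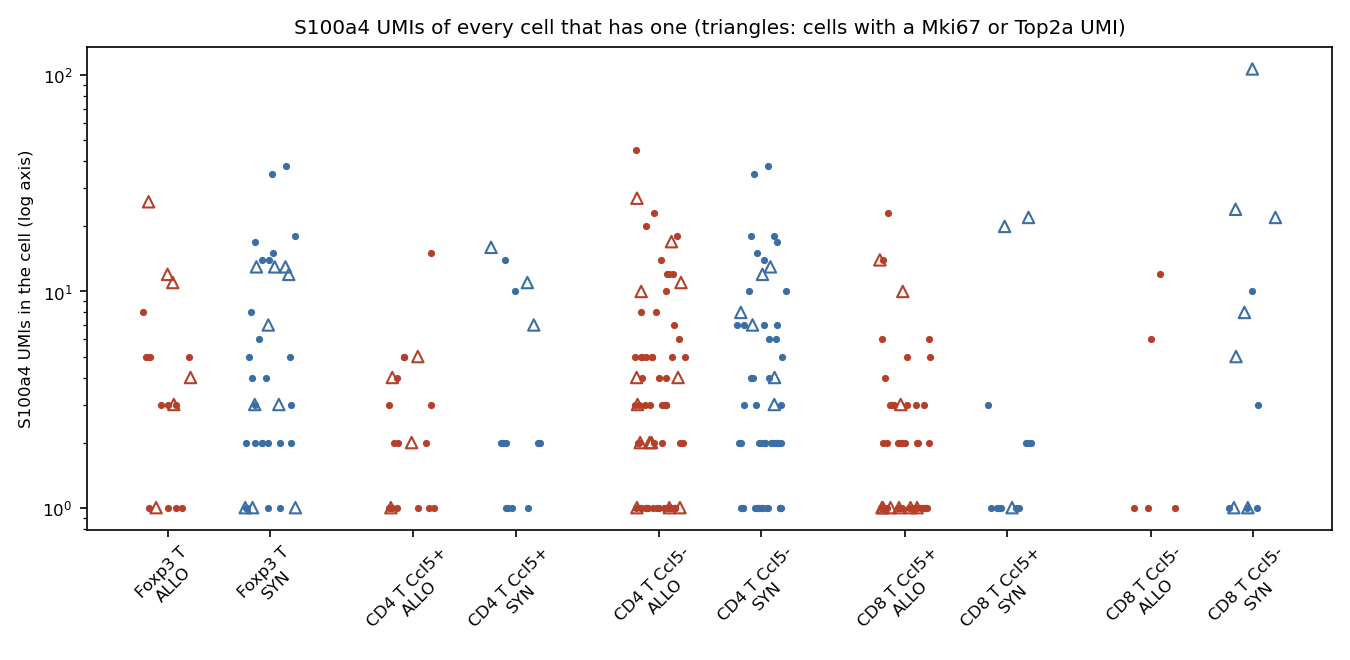
S100a4 UMIs of every cell that held at least 1, on a log axis, by T class in ALLO (red) and SYN (blue), with triangles for cells with a Mki67 or Top2a UMI. The highest point is the SYN CD8 T cell without Ccl5 that held 107 UMIs, and no ALLO cell of that class held more than 12.

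In CD4 T cells, 4 of 9 counted members were at least 1.5-fold higher in ALLO, S100a4, Anxa2, Lgals1 and Ahnak, against 5.15% of 8191 genes. Lgals3 was lower, against 2.31% of genes. The median log2 ratio was 0.46 over the members and 0.02 over all genes. Anxa2 stood at 82.7 CPM in ALLO (72.0 to 94.5) against 36.4 in SYN (30.5 to 43.2), a ratio of 2.27 (1.82 to 2.84). S100a4 stood at 171 in ALLO against 111 in SYN, a ratio of 1.54 (1.35 to 1.77), Lgals1 at 377 against 246 (1.53), and Ahnak at 186 against 122 (1.52). S100a6, at 354 in ALLO against 236 in SYN (1.36 to 1.65), lay just under the limit of 1.5-fold. S100a10 and S100a11 were 1.25-fold and 1.26-fold higher in ALLO, and Vim 1.08-fold. Lgals3 rested on 15 ALLO and 40 SYN UMIs, with a ratio of 0.523 (0.268 to 0.967). After each cell was thinned to 1000 UMIs the direction turned, with a log2 ratio of 0.34. The split by Ccl5 placed Lgals3 differently from the rest, as it stood at 16.9 in ALLO (4 UMIs) against 81.2 in SYN (21 UMIs) with Ccl5 and at 4.65 against 5.64 without.

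Dividing cells were 8.71% of ALLO and 3.90% of SYN CD4 T cells, and they were rich in these genes. They held 114 of 215 ALLO Anxa2 UMIs (53.0%) against 29 of 132 in SYN (22.0%), and 417 of 981 ALLO Lgals1 UMIs (42.5%) against 180 of 892 in SYN (20.2%). Outside dividing cells Anxa2 stood at 46.5 CPM in ALLO against 29.9 in SYN, and Lgals1 at 259 against 207. The ratios were then 1.55 for Anxa2, 1.26 for Lgals1, 1.31 for S100a6, 1.72 for S100a4 and 1.65 for Ahnak. S100a4, Anxa2 and Ahnak thus stayed above 1.5-fold outside dividing cells, and Lgals1 did not. Cells with Foxp3 worked the other way. Without them the CD4 T cell ratio was 2.81 for S100a4, 2.66 for Anxa2 and 2.11 for S100a6. Split by Ccl5, 4 of 8 counted members were then at least 1.5-fold higher in ALLO with Ccl5, against 6.99% of genes, and 5 of 8 without Ccl5, against 4.42%, with 0 lower in either, against 4.79% and 2.52%. S100a6 in the cells with Ccl5 and without Foxp3 stood at 701 in ALLO against 141 in SYN, a ratio of 4.98 (3.40 to 7.49). NK markers summed to 120 CPM in ALLO and 21.5 in SYN CD4 T cells, 2 of the 6 being 1.5-fold higher in ALLO (Gzma and Klrb1c), red cell markers to 47.7 in ALLO and 2.48 in SYN, and neutrophil markers to 16.5 in ALLO and 118 in SYN. Regulatory T cell markers summed to 286 in ALLO and 162 in SYN CD4 T cells. Of these 4, 3 were 1.5-fold higher in ALLO (Ikzf2, Ctla4 and Il2ra), against 5.15% of all genes. Beyond the values without Foxp3 cells, the part of all these markers in the result was not tested.

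By Ccl5, 3 of 8 counted members were at least 1.5-fold higher in ALLO in CD4 T cells with Ccl5, S100a6, Anxa2 and Lgals1, against 7.54% of genes, and 0 lower, against 4.16%. In those without Ccl5 3 of 8 were, S100a4, Anxa2 and Ahnak, against 5.09%, and 0 were lower, against 2.34%. S100a4 did not differ beyond counting error among cells with Ccl5, at 250 in ALLO against 279 in SYN (0.625 to 1.28). It was higher in ALLO among those without, at 164 against 98.3 (1.43 to 1.93). Anxa2 was higher in ALLO in both, at 165 against 61.9 with Ccl5 and at 74.4 against 34.5 without.

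In Foxp3 T cells the direction was the other way for most members. Of 8 counted members 3 were at least 1.5-fold lower in ALLO, S100a4, S100a6 and Ahnak, against 6.85% of 3008 genes, and none was 1.5-fold higher, against 7.38%. The median log2 ratio was -0.39 over the members and -0.01 over all genes. S100a4 stood at 198 CPM in ALLO (161 to 241) against 566 in SYN (501 to 637), a ratio of 0.35 (0.275 to 0.442). S100a6 stood at 687 in ALLO against 1118 in SYN (ratio 0.614, 0.535 to 0.705), and Ahnak at 230 against 432 (ratio 0.533, 0.421 to 0.673). S100a10, S100a11 and Vim were 1.31-fold, 1.33-fold and 1.22-fold lower in ALLO. Anxa2, at 92.9 in ALLO against 103 in SYN, and Lgals1, at 644 against 703, had intervals that held 1. The summed level of the 4 regulatory T cell markers was near level, at 1695 CPM in ALLO and 1711 in SYN.

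Much of the S100a6 in ALLO Foxp3 T cells lay in dividing cells. There 17 dividing cells of 104 held 256 of 340 S100a6 UMIs (75.3%), against 154 of 541 (28.5%) in 16 of 115 SYN cells. Outside dividing cells S100a6 stood at 265 CPM in ALLO against 966 in SYN, and Lgals1 at 272 against 587. Vim there stood at 363 against 732 and S100a4 at 130 against 517. These 4 genes were each at least 2-fold lower in ALLO among cells that carried neither Mki67 nor Top2a, with S100a4 at 3.99-fold and S100a6 at 3.64-fold. The 2 dividing cell markers summed to 816 CPM in ALLO and 285 in SYN, B cell markers to 374 in ALLO and 316 in SYN, and NK markers to 12.1 in ALLO and 53.7 in SYN with Ncr1 and Klra8 at 0. Beyond the values given here without dividing cells or cells of other lineages, their part in the result was not tested. When cells with UMIs of other lineages were left out instead, S100a6 was 1.16-fold lower in ALLO and S100a4 2.86-fold lower. Among the 8 ALLO and 20 SYN cells with Ccl5, 0 of 6 counted members were higher in ALLO, against 11.4% of genes, and 4 were lower, S100a6, Lgals1, Vim and Ahnak, against 10.3%. Among the 96 ALLO and 95 SYN cells without Ccl5, 1 of 8 was 1.5-fold lower, against 163 of 2629 genes, and 0 higher, against 201. That 1 was S100a4, at a ratio of 0.308 (0.238 to 0.395). S100a6, at 0.743 (0.64 to 0.864), and Ahnak, at 0.734 (0.557 to 0.964), were there less than 1.5-fold lower.

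Foxp3 T cells were also set against CD4 T cells without Foxp3 and without Ccl5 of the same library. There 6 of 8 counted members were at least 1.5-fold higher in Foxp3 T cells in ALLO, against 14.6% of genes, and 8 of 8 in SYN, against 15.5%. None was lower in either, against 8.4% of genes in ALLO and 9.01% in SYN. S100a4 differed most between the libraries in this, with a ratio of Foxp3 T over CD4 T cells of 1.20 in ALLO (0.953 to 1.51) and of 11.6 in SYN (9.46 to 14.2).

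In NK cells 1 of 9 counted members was at least 1.5-fold higher in ALLO, S100a4, at 62.0 CPM against 39.0 in SYN (ratio 1.59, 1.07 to 2.37), against 2.84% of genes, and none was 1.5-fold lower, against 5.06%. S100a6 followed at 572 in ALLO against 442 in SYN (1.29-fold), and the other 7 lay between 0.858 and 1.05. NK cells held B cell markers at 8646 CPM in ALLO and 9071 in SYN, with all 8 found, and plasma cell markers at 2302 in ALLO and 142 in SYN. Without cells holding UMIs of other lineages, which left 140 ALLO and 221 SYN cells, the S100a4 ratio was 1.36.

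In B cells 2 of 10 members were at least 1.5-fold lower in ALLO, S100a4 and Lgals3, against 2.94% of 11214 genes, and none was 1.5-fold higher, against 1.54%. S100a4 stood at 1.63 CPM in ALLO (42 UMIs) against 4.88 in SYN (113 UMIs), a ratio of 0.334 (0.229 to 0.48). Lgals3 stood at 9.15 in ALLO against 13.8 in SYN, a ratio of 0.665 (0.559 to 0.789). Anxa1 and Anxa2 were 1.34-fold and 1.36-fold lower in ALLO, and Lgals1, Vim, Ahnak and S100a11 lay between 0.957 and 1.09. The neutrophil genes S100a8 and S100a9 had 5115 and 5470 UMIs in SYN B cells, of which 22 cells held 5072 and 5403, and 42 and 59 UMIs in ALLO B cells. Without cells of at least 10 UMIs of the pair, S100a4 stayed at 0.333, while Lgals3 moved to 0.706, Anxa1 to 0.954 and S100a6 to 1.07. The Anxa1 levels of the libraries thus lay within 1.05-fold of each other without these cells, and the S100a4 difference was as large.

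**Figure D4:**
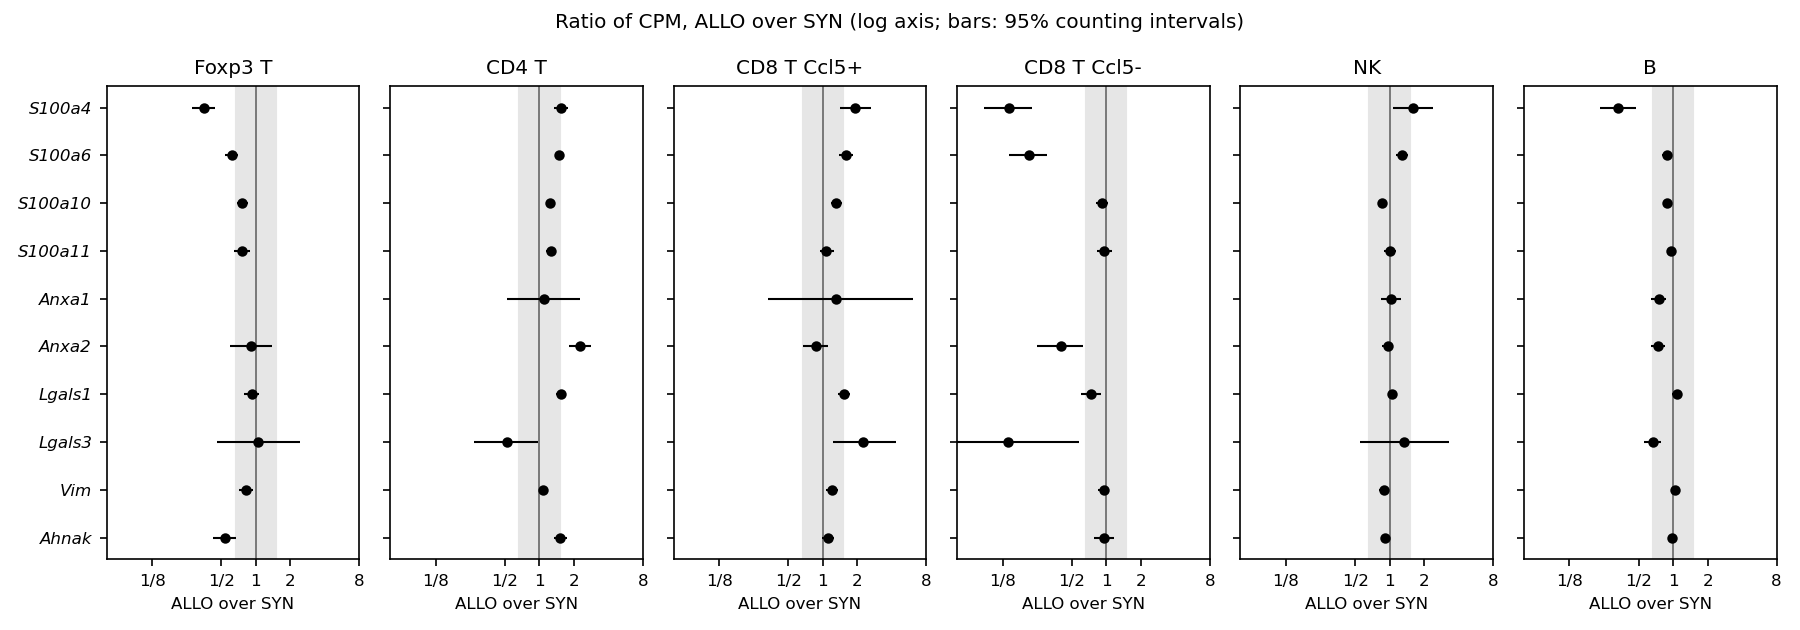
Ratio of CPM in ALLO over SYN for each of the 10 genes in 6 cell classes, on a log axis, with 95% counting intervals as bars. Grey marks differences under 1.5-fold. Genes with 3 or fewer UMIs in both libraries are not drawn, and the lower bar of Lgals3 in CD8 T cells without Ccl5 runs past the axis. S100a4 lies right of grey in CD4 T cells, CD8 T cells with Ccl5 and NK cells and left of it in Foxp3 T, CD8 T cells without Ccl5 and B cells.

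Shares of cells with a UMI were compared after each cell was thinned to 1000 UMIs, since the classes differ in depth. S100a4 was found in 10 of 104 ALLO Foxp3 T cells (9.62%, 4.71% to 17.0%) and 29 of 115 SYN Foxp3 T cells (25.2%, 17.6% to 34.2%). Before thinning the shares were 17.3% in ALLO and 31.3% in SYN. It was found in 8.89% of ALLO and 4.70% of SYN CD4 T cells, in 6.67% of ALLO and 3.32% of SYN CD8 T cells with Ccl5, and in 0.143% of ALLO and 0.542% of SYN B cells. Among CD8 T cells without Ccl5 it was found in 2 of 274 ALLO cells (0.730%) and 11 of 344 SYN cells (3.20%), intervals that overlapped (0.0885% to 2.61% and 1.61% to 5.65%). S100a10 was found in 46.7% of ALLO (40.8% to 52.6%) and 29.4% of SYN CD8 T cells with Ccl5 (23.3% to 36.0%), against 25.9% of ALLO and 29.3% of SYN B cells. Its share in SYN CD8 T cells with Ccl5 was therefore at the level in B cells, and in ALLO above it.

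Cells differed in how many of the 10 genes they carried. Per cell thinned to 1000 UMIs, 4.28 ± 1.63 of the genes were found in ALLO and 3.06 ± 1.78 in SYN effector CD8 T cells (SD over 53 and 17 cells), 3.41 in ALLO and 3.29 in SYN NK cells, and 0.883 in ALLO and 0.921 in SYN B cells. At least 5 of the 10 were found in 22 of 53 ALLO effector cells (41.5%, 28.1% to 55.9%) and 3 of 17 SYN effector cells (17.6%, 3.80% to 43.4%). The same was true of 12 of 104 ALLO (11.5%) and 24 of 115 SYN Foxp3 T cells (20.9%), and of 9.47% of ALLO (6.34% to 13.5%) and 2.84% of SYN CD8 T cells with Ccl5 (1.05% to 6.09%). In the last class the intervals did not overlap. They count cells within 1 library per group, and cells are not replicates of a graft group. In B cells 0.244% of ALLO and 0.235% of SYN cells reached 5 genes, and most carried 1 or none.

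**Figure D5:**
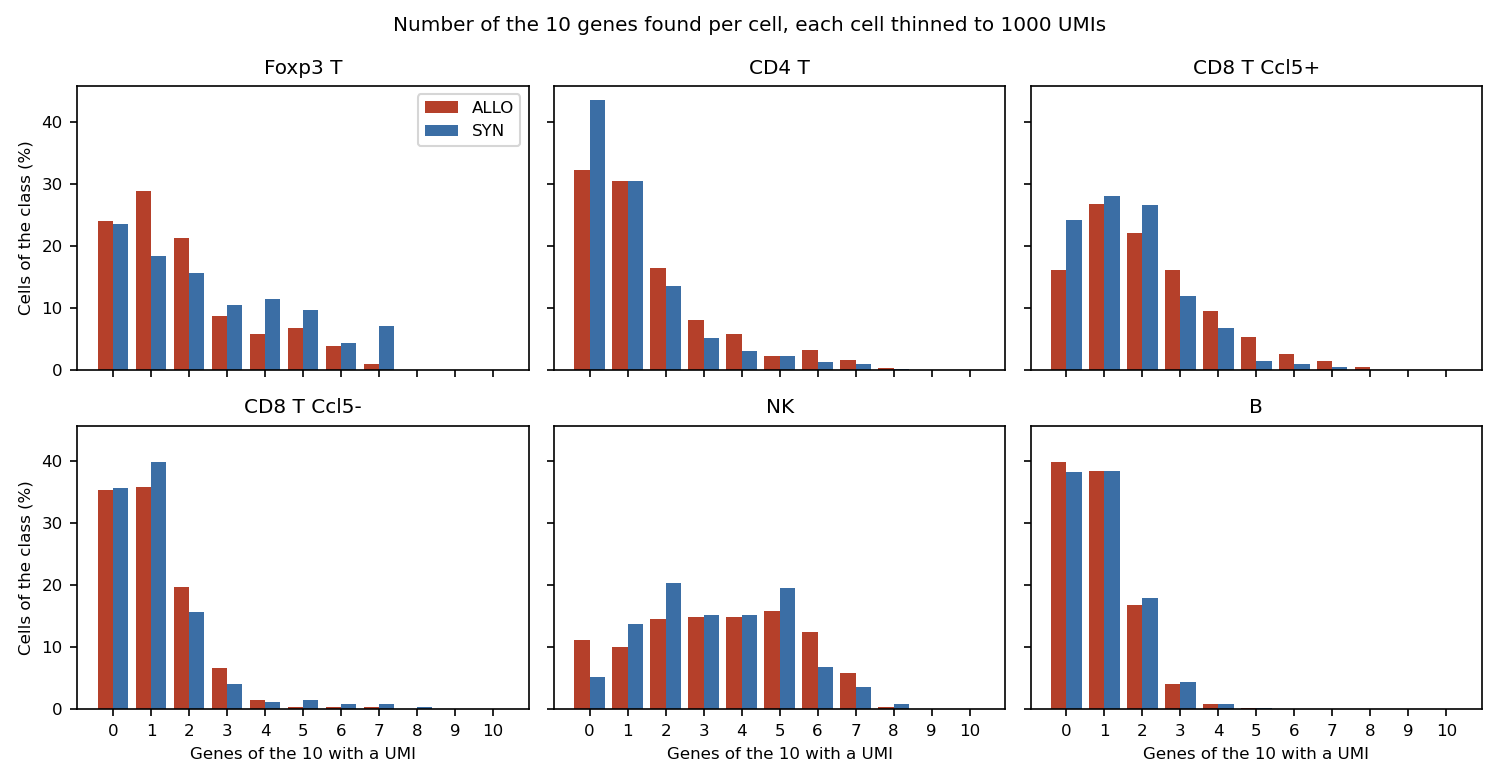
Percent of the cells of 6 classes that held a UMI of 0 to 10 of the genes after thinning to 1000 UMIs per cell, in ALLO (red) and SYN (blue). B cells, CD4 T cells and CD8 T cells without Ccl5 pile up at 0 and 1, and NK cells are spread more evenly. The highest number in a cell was 7 or 8 in every class of both libraries.

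S100a4 was found more often in cells that also held S100a6. Among thinned Foxp3 T cells, S100a4 was found in 8 of 21 ALLO cells with S100a6 (38.1%) against 2 of 83 without (2.41%). In SYN it was found in 25 of 36 with S100a6 (69.4%) against 4 of 79 without (5.06%). In CD4 T cells it was found in 36.0% of ALLO cells with S100a6 against 3.92% without, and in 34.7% of SYN cells with against 1.88% without. S100a4 was therefore rare in Foxp3 T cells and CD4 T cells that lacked S100a6 at this depth, in both libraries. S100a10 and Anxa2, whose proteins form a complex, were looked at in the same way. In CD8 T cells with Ccl5, S100a10 was found in 46.4% of ALLO cells with Anxa2 and 46.7% without, and in 39.1% of SYN cells with Anxa2 and 28.2% without. In NK cells it was found in 63.3% of ALLO cells with Anxa2 and 49.7% without, and in 71.4% of SYN cells with and 54.7% without.

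Across cells the S100a4 and S100a6 pair had the highest correlation of the 45 pairs in CD4 T cells without Ccl5, with r = 0.48 over 520 ALLO cells and 0.53 over 814 SYN cells. Across CD8 T cells with Ccl5 the highest pair was S100a4 and Lgals3 in ALLO (r = 0.45) and S100a4 and S100a6 in SYN (r = 0.36). In B cells no pair passed 0.2 in either library. Cells of a class share a library and dividing cells carry many of these genes, so these values are descriptions.

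Likeness was taken over 16 points, 8 classes in each library. The classes were B and NK cells, and Foxp3 T, CD4 T without Foxp3 and CD8 T cells, each T class by Ccl5. The mean pattern of the 10 genes was followed best by Vim (r = 0.91 with the mean of the other members), S100a10 (0.91), S100a6 (0.89), Ahnak (0.88) and Lgals1 (0.88). Anxa1 (0.43) and Lgals3 (0.52) followed it least. Among 9075 other genes with at least 300 UMIs, the most alike were Acot7 (r = 0.95), a fatty acid thioesterase gene, H2-D1 (0.94), a class I MHC gene, Arhgap18, Itpk1 and Ttc39b (0.93 each) and Ppp1r12a (0.92), which encodes a subunit of myosin phosphatase. The points share libraries, and the order was taken over many genes.

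Few other genes of the families were apart between the libraries. Of all genes in CD4 T cells, 5.15% were at least 1.5-fold higher in ALLO and 2.31% lower. The shares were 2.76% and 4.2% in CD8 T cells with Ccl5, and 7.38% and 6.85% in Foxp3 T cells. Of 10 other S100 genes measured, 3 held at least 50 UMIs in CD8 T cells with Ccl5, of which none was 1.5-fold higher in ALLO and 2 were lower, S100a8 and S100a9, both neutrophil genes. In that class 1 SYN cell held 98 of 98 S100a8 UMIs and 96 of 97 S100a9 UMIs, against 1 and 4 UMIs in all ALLO cells. In CD4 T cells 4 of the 10 were counted, with 0 higher in ALLO and the same 2 lower, and in Foxp3 T cells 1 was counted, with none apart. Of 9 other annexins and 8 other galectins, 4 and 3 were counted in CD4 T cells and in CD8 T cells with Ccl5, and 3 and 1 in Foxp3 T cells, and 0 were 1.5-fold apart in any of these classes.

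Of 15 genes of filaments and partners, 11 were counted in CD4 T cells, with Lmnb1 1.5-fold higher in ALLO and Lmnb2 lower. The shares of all genes in these classes are those given above for the other family genes. Among CD8 T cells with Ccl5 10 were counted, with Capg, an actin-capping protein gene, higher at 35 and 17 UMIs and an interval of the ratio (0.842 to 2.94) that held 1, and in Foxp3 T cells 10, with Lmnb1 and Actn4 higher and Plec lower. Lmnb1, a nuclear lamin gene, stood at 99.8 CPM in ALLO CD4 T cells without Ccl5 against 54.1 in SYN, a ratio of 1.85 (1.52 to 2.25). Its 236 ALLO UMIs lay in 91 cells and its 182 SYN UMIs in 126. Dividing cells were 8.65% of the ALLO and 3.81% of the SYN cells there, and their part in the Lmnb1 ratio was not tested. Lmnb2 stood at 6.54 in ALLO CD4 T cells against 13.5 in SYN, from 17 and 49 UMIs. Actn4, an actin crosslinker gene, stood at 182 in ALLO Foxp3 T cells against 112 in SYN, a ratio of 1.63 (1.15 to 2.33). Crip1, a LIM domain protein gene, stood at 734 in ALLO Foxp3 T cells with Ccl5 against 1505 in SYN, a ratio of 0.487 (0.302 to 0.756), over 8 and 20 cells.

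The memory and effector genes were set beside the members in the same classes. Of 23, 19 were counted in CD4 T cells, and 6 were at least 1.5-fold higher in ALLO, with 0 lower, against 5.15% and 2.31% of all genes. For CD8 T cells with Ccl5 22 were counted, with 7 higher in ALLO and 1 lower, against 2.76% and 4.2% of genes. In Foxp3 T cells 10 were counted, with 1 higher in ALLO and 7 lower, against 7.38% and 6.85% of genes, and their median log2 ratio was -1.05. Of the naive T cell genes, 0 of 10 were 1.5-fold apart in CD4 T cells, while in CD8 T cells with Ccl5 and in Foxp3 T cells Igfbp4 was higher in ALLO, as 1 of 10 and 1 of 9 counted. The median of the memory genes was 0.48 in CD4 T cells and 0.29 in CD8 T cells with Ccl5, so it lay on the same side of 0 as that of the 10 genes in each of these 3 classes, on values that were known when both lists were written.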

How the data were processed

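The authors deposited, for each library, a filtered matrix of UMI counts per gene and barcode. Cell Ranger 6.0.2, FastQC and the mouse build mm10 are named per the submitters' processing notes. From these counts Python 3.11.15 with numpy 2.4.6, scipy 1.17.1, pandas 2.3.3 and scanpy 1.11.5 kept barcodes with at least 1000 UMIs, assigned classes by marker UMIs, and summed UMIs per class and library. Not every gene of the other-lineage filter is named here. Doublets were not removed, since the automatic threshold of Scrublet marked 1 ALLO and 0 SYN barcodes, and a score limit of 0.25 was tried as an alternative added after seeing the data. Levels are CPM, UMIs scaled to a class total of 1000000, with exact Poisson, conditional ratio and Clopper-Pearson 95% intervals, which cover counting error only. A gene was counted with at least 50 UMIs over both sides and set apart at 1.5-fold. Where a side had 0 UMIs, a floor of 3 counts stood in. Medians took members with more than 3 UMIs on a side. The ratio intervals were tried on simulated independent Poisson sums, which is the model they assume. They held true ratios of 0.5, 1 and 2 for 98.0%, 95.7% and 92.9% of the genes given each ratio. Only a small part of the genes was given 0.5 or 2, so the shares for these ratios rest on far fewer genes. UMIs that pile up in a few cells were not simulated, so intervals may be too narrow where that happens.

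The members and all lists (other S100, annexin and galectin genes, filaments and partners, naive, memory or effector, and markers of B, T, NK, myeloid, neutrophil, red, platelet, plasma, regulatory T and dividing cells) were chosen with earlier results of these data known. Family genes outside the members were named by size, at most 6, when at least 1.5-fold apart with an interval clear of 1, in the order of the bound nearest 1. The 6 genes most alike were named by the correlation of log2 levels with a pseudocount of 10 CPM over genes with at least 300 UMIs. Genes named to spell out other counts were chosen after their values were seen. The number of animals behind each library beyond the design text was not given in the sources used here. With 1 library per group no p-value was computed.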

Additional observations from a re-analysis of the deposited data

Results flagged for a closer look

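Some of the genes were at least 1.5-fold higher in ALLO in some classes and at least 1.5-fold lower in others, with counting intervals that did not hold 1. The difference between classes was not tested, since each class had 1 library per group. For S100a4 the ALLO over SYN ratio was 1.54 in CD4 T cells, 1.91 in CD8 T cells with Ccl5 and 1.59 in NK cells, while it was 0.35 in Foxp3 T cells, 0.142 in CD8 T cells without Ccl5 and 0.334 in B cells. Without dividing cells the S100a4 ratio in CD8 T cells without Ccl5 was 1.61, from 21 ALLO and 16 SYN UMIs. For S100a6 the ratio was 1.6 in CD8 T cells with Ccl5, 0.614 in Foxp3 T cells and 0.211 in CD8 T cells without Ccl5. Without cells holding UMIs of other lineages, S100a6 turned to a log2 ratio of 1.61 in CD8 T cells without Ccl5. In Foxp3 T cells S100a6 was then less than 1.5-fold lower. Anxa2 had a ratio of 2.27 in CD4 T cells and 0.401 in CD8 T cells without Ccl5. In that last class 0 genes were 1.5-fold lower after thinning, and 0 without cells of other lineages. Lgals3 had a ratio of 2.25 in CD8 T cells with Ccl5, 0.523 in CD4 T cells and 0.665 in B cells, and thinning every cell to 1000 UMIs turned its CD4 T cell direction (log2 ratio 0.34). Ahnak had a ratio of 1.52 in CD4 T cells and 0.533 in Foxp3 T cells, which share 45 ALLO and 49 SYN cells. Among Foxp3 T cells without Ccl5 the ratio was 0.743 for S100a6 and 0.734 for Ahnak, both less than 1.5-fold lower.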

How the results depend on the processing

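The choices tried were thinning, other UMI, gene and Ccl5 limits, other scaling, and leaving out dividing cells, cells with UMIs of other lineages, high doublet scores, cells rich in S100a8 and S100a9, or the 3 top cells of each gene. Of 138 alternative values of 12 counts and medians over the genes, 117 stayed near the value reported and 21 moved. In Foxp3 T cells the number of genes at least 1.5-fold lower in ALLO, 3 as reported, was 5 after thinning, 7 without dividing cells, 6 from the mean of per-cell levels and 1 at a limit of 2-fold, where 6.12%, 6.91%, 8.98% and 1.26% of all genes were lower. Their median log2 ratio was -1.01 without dividing cells. In CD4 T cells the median was 0.30 without dividing cells, and 1 gene was 2-fold higher in ALLO, against 1.94% of all genes. In CD8 T cells with Ccl5 the median was 0.72 after thinning, 0.70 with at least 2 Ccl5 UMIs and 0.80 from per-cell levels, and 1 gene was 2-fold higher, against 0.545% of all genes. In CD8 T cells without Ccl5 the count of lower genes was 0 after thinning, 0 without cells of other lineages, 1 without dividing cells and 5 over genes with at least 1 UMI, against 6.54%, 5.95%, 5.28% and 18.1% of all genes. The median there was 0.38 without cells of other lineages, 0.17 without dividing cells and -0.13 without the 3 top cells. With over without Ccl5, the count of genes 2-fold higher was 4 in ALLO CD4 T cells, 2 in SYN CD4 T cells and 2 in SYN CD8 T cells, against 4.21%, 4.34% and 1.67% of all genes.

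Alternative values of single genes that were at least 1.5-fold apart as reported numbered 310 between libraries, of which 4 turned direction, and 243 in the Ccl5 contrast, of which 5 did. Of the 648 and 101 values of genes that were under 1.5-fold apart as reported, 74 and 13 crossed to the other side of 1. For genes at least 1.5-fold apart as reported, the 4 values that turned between libraries are given as log2 ALLO over SYN. Lgals3 in CD4 T cells turned after thinning (0.34). In CD8 T cells without Ccl5, S100a4 turned without cells of other lineages (1.68) and without dividing cells (0.69), and S100a6 without cells of other lineages (1.61). The 5 values of such genes that turned in the Ccl5 contrast are given as log2 of Ccl5 over no Ccl5. In Foxp3 T cells they were Ahnak after thinning (-0.87) and Lgals1 without dividing cells (0.32) in ALLO, and Anxa2 without dividing cells (-0.68) in SYN. In SYN CD8 T cells S100a4 was at 2.29 without cells of other lineages and 0.31 without dividing cells. Each of these alternatives uses fewer UMIs, and the cause of the turn was otherwise not tested. The settings for effector cells and the other CD8 T cells with Ccl5 were added after seeing the data, as were those on dividing cells, top cells, doublet scores and S100a8 with S100a9.

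No paired analysis was possible because each group had 1 library and the values come from no test. The sums behind the smaller classes limit what can be seen, as with 17 SYN effector cells or 8 ALLO Foxp3 T cells with Ccl5, and Anxa1 and Lgals3 in T cells rest on few UMIs. Another scaling moved the median of all genes by at most 0.07 (log2, in B cells).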

Other observations

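Myeloid cells (at least 2 UMIs of Lyz2 and Csf1r, with none of the lymphocyte markers) numbered 21 in ALLO and 72 in SYN, and they carried Anxa1 and Lgals3 at levels that no lymphocyte class reached. Lgals3 stood at 944 CPM in ALLO and 913 in SYN myeloid cells, and Anxa1 at 2424 in ALLO against 1321 in SYN. S100a6, at 1324 in ALLO against 3203 in SYN, and S100a4, at 204 against 633, were lower in ALLO with intervals clear of 1. S100a10 and Lgals1, at 5 ALLO and 39 SYN UMIs each, were low there, unlike in NK cells. These cells lie outside the lymphocyte classes and the libraries hold few of them.

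Barcodes under 1000 UMIs, which entered no class, numbered 1259 in ALLO and 6510 in SYN. Ahnak stood at 474 CPM in them in ALLO, against 137 in ALLO barcodes above the limit, and at 224 in SYN, against 145 above it. The other 9 genes were lower in the ALLO barcodes under the limit than in those above it, as with S100a4 at 15.0 against 31.5. In SYN the S100a4 level was 43.1 under the limit against 40.3 above it.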
